A study of Mus musculus with 6 samples.

Results

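Of the 8129 regions listed for H3K4me3 replicate 1 in fetal mouse oocytes, 784 (9.64%, exact 95% interval 9.01 to 10.3%) lay between genes and more than 10 kb from any annotated transcription start site (TSS). They are called distal intergenic regions here. They were chosen by the authors' annotation class, Intergenic, and by an absolute distance to the nearest TSS above 10 kb, and not by score, width or any second library. They made up 68.5% of the 1144 intergenic regions of that list, and the other 360 intergenic regions, at 1.02 to 9.98 kb from a TSS, served as the comparison. The distal regions together covered 456 kb, which was 8.38% of the length covered by the whole list.

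The oocytes were sorted from female E16.5 embryos labelled as strain C57BL/6, late in mouse gestation. All were wild type for Taf4b, and all came from matings of mice homozygous for an Oct4-EGFP transgene (line B6;129S4-Pou5f1tm2Jae/J), whose green fluorescence marks germ cells and was used for the sort. CUT&RUN, in which an antibody directs a nuclease to its target so that only nearby DNA is released and sequenced, was run in 2 libraries each for H3K4me3, the TFIID subunit TAF4b and an IgG control. Whether the replicates came from separate animals, and whether embryos were pooled for a library, is not in the labels. The lists hold positions and no expression values, so the labelled cell type could not be checked against marker genes.

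H3K4me3 is trimethylation of lysine 4 on histone H3, placed by SET1 and MLL methyltransferase complexes, and it is best known from active promoters, where TFIID can bind it. Germ cells also carry it away from promoters. In meiotic prophase, which fetal oocytes pass through, the methyltransferase PRDM9 marks recombination hotspots with it, and in growing oocytes after birth it forms broad domains between genes. Which of these forms, if any, the distal intergenic regions belong to was not tested.

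The other lists used held 320 regions for H3K4me3 replicate 2, and 983 and 1111 peaks for TAF4b replicates 1 and 2. The lists give no read totals, so depth is unknown, and IgG was not analysed here. Scores of H3K4me3 replicate 1 are the authors' own and fall on multiples of a step of 2.32, from 10 steps upward. Each feature list comes from 1 library, so regions are not replicates of a condition. Each test below compares 2 classes of regions within H3K4me3 replicate 1, apart from an alternative near the end that adds replicate 2. The interval of a test covers counting error only. Neighbouring regions are also not independent of each other.

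Distal intergenic regions lay a median of 31.4 kb from the nearest TSS. The lower and upper quartiles were 18.7 and 63.4 kb, and the 90th percentile was 107 kb. Between 10 and 25 kb there were 319 regions (40.7%), between 25 and 50 kb 224 (28.6%), between 50 and 100 kb 147 (18.8%), between 100 and 200 kb 75 (9.57%), and beyond 200 kb 19 (2.42%). These groups widen outward, so the number of regions per kb fell from each group to the next.

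**Figure D1:**
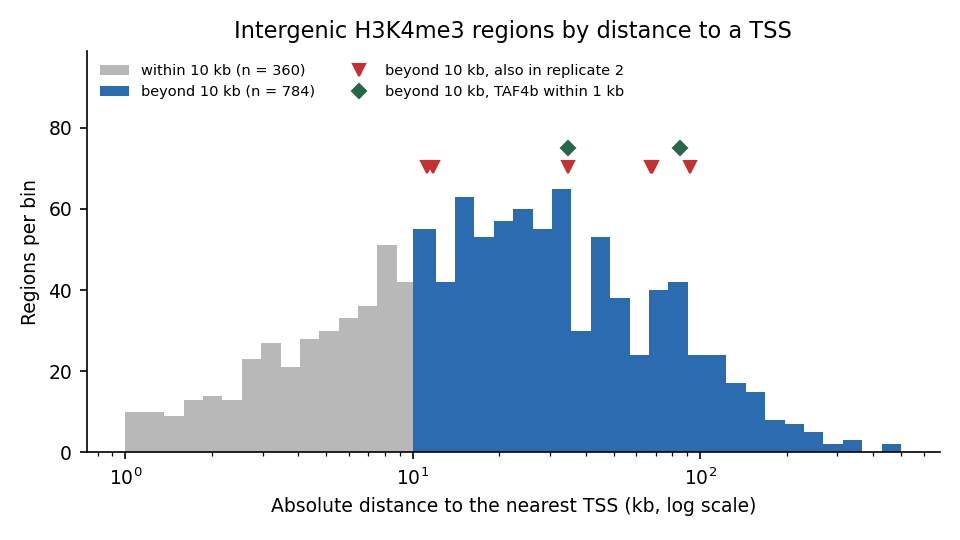
Number of intergenic H3K4me3 replicate 1 regions (vertical axis) by absolute distance to the nearest TSS in kb (horizontal axis, log scale), with the 360 regions within 10 kb in grey and the 784 beyond in blue. Triangles mark the distances of the 6 distal regions also found in replicate 2, and diamonds those of the 2 with a TAF4b peak within 1 kb; all 8 lie between 10 and 100 kb.

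The farthest lay on chromosome 4 at 50735128 to 50735628, 448632 bp downstream of the TSS of transcript ENSMUST00000104120, with a score of 37.1. The next spanned 13382253 to 13382753 of chromosome 11, 434837 bp downstream of ENSMUST00000117869, with a score of 32.5. Another, on chromosome 5 at 85379304 to 85379804, had a distance of -364850 bp, the minus sign marking a position upstream of the TSS, and a score of 51. All 3 were 500 bp wide, and none was found in H3K4me3 replicate 2 or had a TAF4b peak within 1 kb. Transcripts carry Ensembl identifiers only, so the neighbouring genes are not named.

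Regions were listed right up to the limit on both sides. The distal regions closest to it lay at 10088 bp (chromosome 7 at 98800533 to 98801244, score 58) and -10104 bp (chromosome 7 at 144706379 to 144706879, score 30.2). The last regions inside it lay at 9975 bp (chromosome 6 at 61141284 to 61141784, score 41.8) and 9965 bp (chromosome 15 at 96607769 to 96608269, score 30.2).

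Distal intergenic regions sat on either side of their nearest TSS in nearly equal numbers, with 414 of 784 upstream (52.8%, exact interval 49.2 to 56.3%). Within 10 kb, 255 of 360 lay upstream (70.8%, 65.8 to 75.5%). These intervals do not overlap, and the difference was not tested. Positions inside a gene, downstream of its TSS, are not of the Intergenic class. The choice of regions thus bears on the side of the TSS, most of all close to it.

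Most distal intergenic regions scored no higher than the list median and had the narrowest width of the list. Their scores ran from 23.2 to 271.4 with a median of 37.1, or 16 steps, and quartiles of 32.5 and 51. The median over all regions of the list was 41.8, or 18 steps. A score above that list median was reached by 281 of the 784 (35.8%, exact interval 32.5 to 39.3%), where all regions gave 49.1%, since many share the median value. Only 6 distal regions scored 100 or more, of 395 in the list.

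A width of 500 bp, the narrowest in the list, was given for 521 of the 784 (66.5%), and the next wider was 625 bp. The other 263 (33.5%, 30.2 to 37.0%) were wider, against 47% over all regions. At least 1000 bp was reached by 17 (2.17%), against 10.3% of the list. Width and score rose together, with a Spearman rho of 0.739 over the 784 regions, given as a description since both come from the same reads. Both were only weakly related to distance: rho was -0.0521 between distance and score and -0.0583 between distance and width. The median score was 37.1 in each of the 5 distance groups from 10 kb to beyond 200 kb. The share wider than 500 bp was 30.8 to 36.7% in the 4 groups up to 200 kb and 2 of 19 (10.5%) beyond, a group too small to read a trend from.

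**Figure D2:**
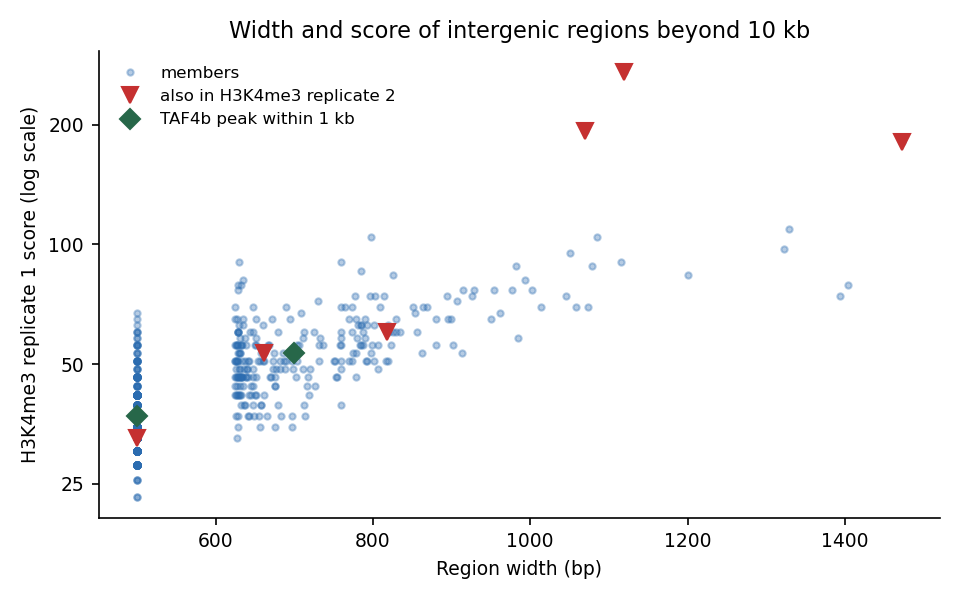
Score in H3K4me3 replicate 1 (vertical axis, log scale) against width in bp (horizontal axis) for each of the 784 distal intergenic regions, with triangles for the 6 found in replicate 2 and diamonds for the 2 with a TAF4b peak within 1 kb. The 3 highest scores, 181 to 271.4, stand above the next, 109, and all 3 were found in replicate 2.

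In width and score, the distal regions were not distinguishable from the intergenic regions within 10 kb. Of the latter, 118 of 360 were wider than 500 bp (32.8%, 27.9 to 37.9%), and the odds ratio of distal against near was 1.04, with a 95% interval of 0.788 to 1.36. Fisher's exact test, two-sided here and throughout, gave p = 0.839, also after adjustment over the 4 comparisons of these classes (adjusted p = 0.839). A score above the list median was also found in 118 of the 360, and the odds ratio was 1.15 (0.873 to 1.51; exact p = 0.317, adjusted p = 0.591). Medians were the same in both classes, 37.1 for score and 500 bp for width. Each odds ratio crossed 1 under some other limits, so neither has a stable direction.

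Against the other 7345 regions of the list, most of them at or near genes, the distal regions were lower in score and narrower. The odds ratio was 0.546 for a score above the median (0.467 to 0.638) and 0.538 for a width above 500 bp (0.459 to 0.630). In a family of 4 comparisons chosen after the data were seen, Fisher's exact tests gave adjusted p-values of 5.21e-15 and 2.82e-15. In the promoter class, 55.9% of regions were wider and 58.4% above the median score. The 976 intron regions that also lay beyond 10 kb of a TSS had 37.4% (34.4 to 40.5%) wider than 500 bp and 39.9% (36.8 to 43.0%) above the median score. Those intervals overlap the intervals of the distal intergenic regions, and this difference was not tested.

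**Figure D3:**
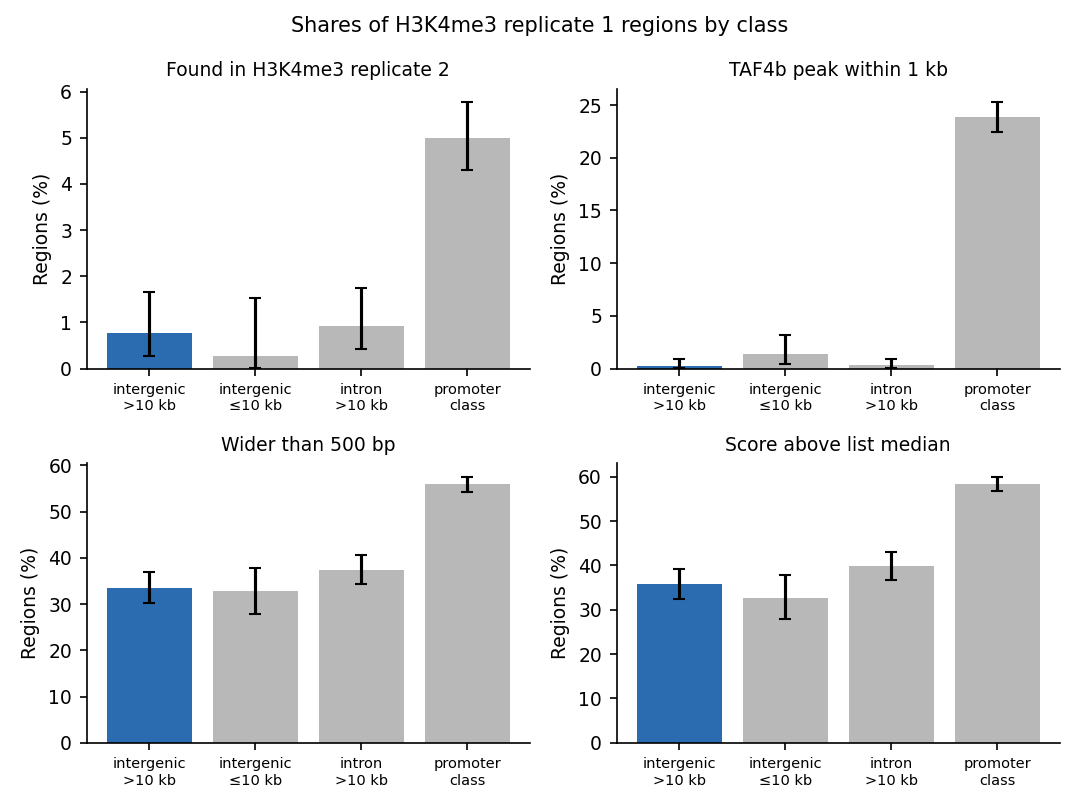
Share in percent of H3K4me3 replicate 1 regions (vertical axes) found in replicate 2, with a TAF4b peak within 1 kb, wider than 500 bp, and scoring above the list median, for intergenic regions beyond and within 10 kb, intron regions beyond 10 kb and the promoter class. Bars start at 0 and error bars are exact 95% binomial intervals; the 3 classes away from promoters stand below the promoter class in each panel, as with 33.5%, 32.8% and 37.4% against 55.9% for width.

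Few distal intergenic regions were found again in the second H3K4me3 library. Of the 784, 6 overlapped a replicate 2 region by at least 1 bp (0.765%, exact interval 0.281 to 1.66%), against 2.84% of all regions. Within 10 kb the count was 1 of 360 (0.278%, 0.00703 to 1.54%). Intron regions beyond 10 kb of a TSS were found in 9 of 976 cases (0.922%, 0.422 to 1.74%), an interval that overlaps that of the distal regions. The odds ratio of distal against near was 2.77 with a wide interval (0.334 to 127.7; exact p = 0.444, adjusted p = 0.591), so no difference between these classes was detectable. Against all other regions, of which 225 of 7345 were found (3.06%), it was 0.244 (0.0883 to 0.542), and the exact test, added after the data were seen, gave an adjusted p of 3.72e-05. Replicate 2 lists only 320 regions, so absence from it says little about a single region.

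The 3 distal regions with the highest scores were all found in replicate 2. The highest spanned positions 64257667 to 64258786 of chromosome 11, with ENSMUST00000058652 as nearest transcript at -67932 bp, and its score of 271.4 ranked 5 of all 8129. Its counterpart in replicate 2 was 500 bp wide with a score of 70.9, among the 20 lowest of the 320 scores there. For this region, high standing in the first list thus went with low standing in the second.

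The next spanned 32751941 to 32753011 of chromosome 11, at -11751 bp from ENSMUST00000122821, and scored 192.6 in replicate 1 and 170.2 in replicate 2. It ranked 18 in the first list and 17 in the second, and the centres were 37 bp apart. The other of the 3, on chromosome X at 95011010 to 95012482, was also the widest distal region at 1472 bp. It lay at -11178 bp from ENSMUST00000139717, scored 181 and 248.2, and ranked 25 and 10 in the lists. Its replicate 2 counterpart was 1166 bp wide and lay wholly inside it. These 2 regions stood high in both libraries, and both lay near the 10 kb limit.

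The other 3 scored lower in replicate 1, from 32.5 to 60.3, where the upper quartile of the distal regions was 51. The region on chromosome 4 at 95198617 to 95199435, 92001 bp downstream of ENSMUST00000187014, scored 60.3 and 99.3. The region on chromosome 8 at 18494886 to 18495548, 67444 bp downstream of ENSMUST00000104487, scored 53.4 and 99.3. The region on chromosome 8 at 89497968 to 89498468, at -34801 bp from ENSMUST00000079841, scored 32.5 and 85.1, the first of these below the median of its list, and its 500 bp overlapped the replicate 2 region over 494 bp. Of the 6 regions found in both lists, 5 were wider than 500 bp and 5 scored above the list median.

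The 2 next highest scores among the distal regions were not matched in replicate 2. They belonged to chromosome 14 at 10915319 to 10916648 (score 109, at -33020 bp from ENSMUST00000224543) and chromosome 15 at 68977122 to 68977919 (score 104.4, at 129328 bp from ENSMUST00000229754). A region on chromosome 9 at 69635724 to 69636809, at -29756 bp from ENSMUST00000180488, tied with the latter at 104.4. The widest distal regions after that on chromosome X, on chromosome 2 at 61486321 to 61487725 (1404 bp, score 78.9) and chromosome 6 at 145781293 to 145782687 (1394 bp, score 74.2), were not matched either.

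Below the 3 highest scores, 3 of the other distal regions were found in replicate 2. When the list was divided at its score quartiles, distal regions made up 12.9% of the lowest group and 4.15% of the highest. In the highest group 3 of 79 distal regions were found in replicate 2 (3.80%), and these were the 3 with the highest scores, beside 121 of 1404 regions centred within 1 kb of a TSS (8.62%). In the groups below, from high to low, the counts for distal regions were 2 of 202, 0 of 190 and 1 of 313. The TSS regions of those groups were found in 4.27%, 2.03% and 0.930% of cases. The distal share was lower in each group, on counts too small for a comparison within a group.

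**Figure D4:**
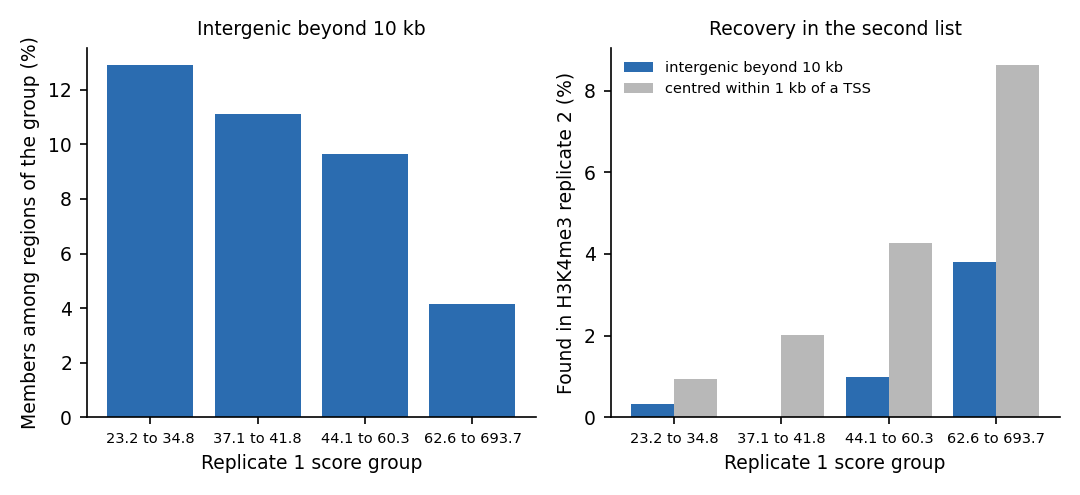
Left, distal intergenic regions as a percentage of all H3K4me3 replicate 1 regions in 4 groups divided at the score quartiles (horizontal axis, lowest and highest score of each group), falling from 12.9% to 4.15%. Right, percentage found in replicate 2 in the same groups, for distal regions (blue) and regions centred within 1 kb of a TSS (grey), reaching 3.80% and 8.62% in the highest group; bars rest on 0 to 3 distal regions found.

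By the same rule, replicate 2 held 17 distal intergenic regions of its 320 (5.31%, exact interval 3.12 to 8.37%), and 7 intergenic regions within 10 kb. Of the 17, 6 overlapped a region of replicate 1 (35.3%, 14.2 to 61.7%), in each case one of the distal regions above. Of the 296 other regions of replicate 2, 224 did (75.7%, 70.4 to 80.5%), and of the 7 near intergenic ones 1 did. The 11 distal regions without a match lay at least 68.7 kb from any replicate 1 region, although that list is far longer.

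The strongest regions among these 11 stood high in their list. That on chromosome 12 at 3159740 to 3160240, 27323 bp from a TSS, had a score of 2538.2 and ranked 3 of 320. That on chromosome 17 at 13524849 to 13526468, at -25352 bp, scored 312 and was 1619 bp wide. It held a TAF4b replicate 2 peak at 13526286 to 13526420, whose score of 45.7 ranked 9 of 1111. Neither had a region in H3K4me3 replicate 1, where the nearest lay 199668 and 297631 bp away.

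TAF4b was listed at hardly any distal intergenic region. A peak of either TAF4b replicate lay in or within 1 kb of 2 of the 784 (0.255%, exact interval 0.0309 to 0.918%), against 12.8% of all H3K4me3 regions. Without TAF4b replicate 1 the count was 1, and without replicate 2 it was 2. Within 10 kb it was 5 of 360 (1.39%, 0.452 to 3.21%), and in introns beyond 10 kb it was 3 of 976 (0.307%, 0.0634 to 0.896%). The low share was thus not confined to the distal intergenic regions. The odds ratio of distal against near was 0.182 (0.0172 to 1.12; exact p = 0.035), which did not pass after adjustment over the 4 comparisons (adjusted p = 0.140). The near regions begin at 1.02 kb from a TSS. From the closest of them the 1 kb window also reaches the TSS, and from no distal region does it. With a window of 5 kb the counts were 2 of 784 and 13 of 360 and the adjusted p was 5.48e-05, but such a window reaches the TSS itself from the 175 near regions centred within 5 kb of it and from none of the distal ones. Against all other regions the odds ratio was 0.0156 (0.00188 to 0.0566; exact test added after the data were seen, adjusted p = 3.93e-45). Distal regions were chosen by distance to a TSS. Of the TAF4b peaks, 31 of 983 in replicate 1 and 11 of 1111 in replicate 2 were intergenic beyond 10 kb. This contrast is thus largely set by the rule. The test cannot tell the distal intergenic class apart from its distance to a TSS.

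The first distal region with TAF4b spanned 9124787 to 9125487 of chromosome 4, at -84866 bp from ENSMUST00000082782, with an H3K4me3 score of 53.4. It overlapped a replicate 1 peak at 9125399 to 9125489 with a score of 5.77, below the median of 7.7 for that list, and had no replicate 2 peak nearby. The second lay on chromosome 4 at 156390182 to 156390682, 34554 bp downstream of ENSMUST00000122571, with an H3K4me3 score of 37.1. It overlapped a replicate 2 peak at 156390401 to 156390535 with a score of 16.2, and another at 156391212 to 156391346 lay 530 bp away with a score of 14.2. A replicate 1 peak at 156391480 to 156391570, scoring 6.16, lay 798 bp away. Peaks of both TAF4b libraries were thus present at the second, all scoring below the medians of their lists, 7.7 and 18.3. Neither region was found in H3K4me3 replicate 2.

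Seen from TAF4b, 31 peaks of replicate 1 (3.15%) and 11 of replicate 2 (0.990%) were themselves intergenic and beyond 10 kb of a TSS. Of these, 2 in each list lay within 1 kb of an H3K4me3 replicate 1 region, and in each case that region was distal intergenic. The other 38 had no region of that list within 1 kb. Among them was the TAF4b replicate 2 peak on chromosome 17 named above, which lay in a region of H3K4me3 replicate 2. The share over all TAF4b peaks was not counted, so these counts cannot be called high or low.

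Distal intergenic regions mostly stood alone. With a cluster taken as neighbours at most 50 kb apart, 703 of the 784 had no such neighbour and 81 (10.3%) fell into 39 clusters, 36 of 2 regions and 3 of 3. Among the 360 near regions, 18 (5.00%) fell into 9 pairs, but a class with fewer regions also has fewer chances of close neighbours. The median gap to the next distal region was 797 kb. Of the 81 clustered regions, 30 (37.0%) were wider than 500 bp, beside 233 of the 703 alone (33.1%), and the median scores were 41.8 and 37.1. None of the 81 was found in replicate 2 or had TAF4b within 1 kb. Over all 784 these shares were only 0.765% and 0.255%, so 81 regions are too few to read anything from this. In 30 of the 39 clusters all regions had the same nearest transcript.

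The 3 largest clusters each held 3 regions. On chromosome 1, regions starting at 59398230, 59442955 and 59451971 scored 37.1, 37.1 and 51 within 54.4 kb, and all had ENSMUST00000187523 as nearest transcript, at -19609, 25116 and 34203 bp. On chromosome 3, regions at 104439649, 104472984 and 104476289 scored 37.1, 32.5 and 41.8 within 37.1 kb. On chromosome 6, regions at 94855162, 94859524 and 94907796 scored 69.6, 32.5 and 37.1 within 53.1 kb, the first 2 upstream of ENSMUST00000204329. The closest neighbours of all were on chromosome 2 at 57786817 to 57787317 and 57788244 to 57788744, 927 bp apart, and on chromosome 16 at 5661086 to 5661586 and 5662669 to 5663316, 1083 bp apart.

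Most distal regions were far from any other H3K4me3 region. The median gap to the nearest region of any class was 154 kb, against 58.9 kb for the near regions, and 490 (62.5%) had none within 100 kb, against 129 (35.8%). Regions of the whole list lay a median of 0.4 kb from a TSS, and distal regions were chosen away from TSSs. These gaps are therefore partly set by the rule. The most isolated distal region, on chromosome 16 at 71720716 to 71721346 with a score of 41.8, was 3842 kb from the next. Whether the mark was also listed at the nearest TSS was counted for both classes. How often TSSs in general carry it here was not counted, so neither share can be called high or low. For 44 of 784 (5.61%, exact interval 4.11 to 7.46%) a region centred within 1 kb of a TSS lay at the same distance as the nearest TSS, to within 1 kb. For the near regions the count was 43 of 360 (11.9%, 8.78 to 15.8%). These intervals do not overlap, and the difference was not tested.

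Each of the 20 chromosomes with assembled sequence in the list held distal regions, from 13 on chromosome 19 to 73 on chromosome 2. As a share of the H3K4me3 regions on a chromosome, they ranged from 4.92% on chromosome 19 (exact interval 2.65 to 8.27%) to 14.4% on chromosome 18 (10.1 to 19.6%). The intervals of 4 chromosomes, 1, 6, 14 and 18, lay above the 9.64% of the whole list, and those of 5 chromosomes, 7, 9, 10, 11 and 19, lay below it, with no adjustment for the number of chromosomes. A chromosome with fewer genes offers more room beyond 10 kb of a TSS, and gene density was not adjusted for. Chromosome X held 27 distal regions, 11.5% of the regions on it (7.74 to 16.3%). Taken instead as a share of all 784 distal regions, this was 3.44% (2.28 to 4.97%). By that measure X held 2.88% of all listed regions and 2.22% of the near ones.

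**Figure D5:**
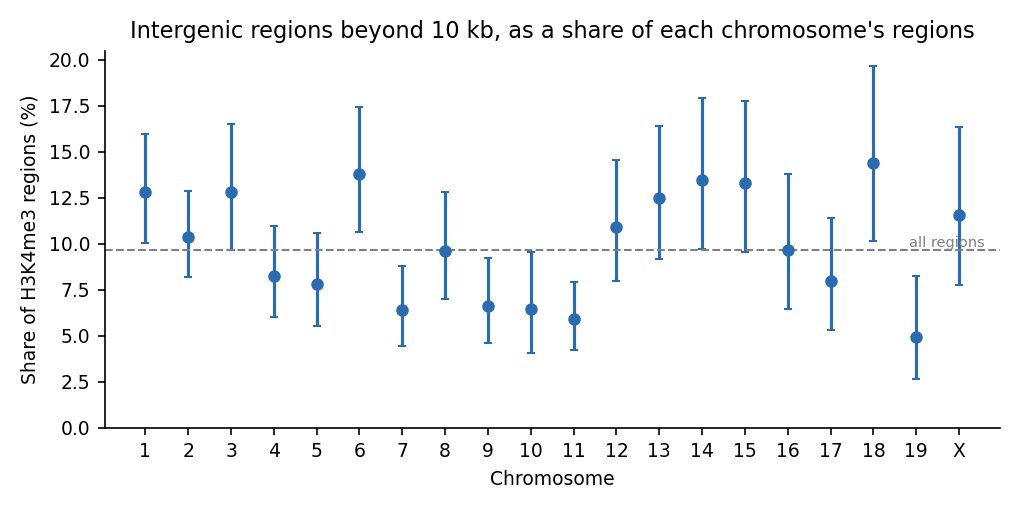
Distal intergenic regions as a percentage of all H3K4me3 replicate 1 regions on each chromosome (points), with exact 95% binomial intervals; the dashed line is the 9.64% of the whole list. Chromosomes 19 and 11 are lowest at 4.92% and 5.90%, and chromosomes 18 and 6 highest at 14.4% and 13.8%.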

How the data were processed

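The authors deposited 1 annotated feature list per H3K4me3 and TAF4b library, with GRCm39 positions. The submitters' processing notes name Trim Galore 0.5.0, Bowtie2 2.3.0, SAMtools 1.9 and HOMER 4.10, without roles. No source used here says whether IgG was the control. The peak score deposited by the authors has no stated scale, so scores were compared only within a list. Distance to TSS and width are in bp per the file headers. The focus ratio of the TAF4b lists, a fraction per the file headers, was not used.

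Distal regions, readouts and named regions were chosen with earlier results of these data known. Regions named are the 5 highest, those found in replicate 2, those with TAF4b within 1 kb, the 3 farthest, the 3 widest, the largest clusters and those at the limit; the other clusters, isolated and replicate 2 regions named were picked after their values were seen. Regions overlapped if they shared at least 1 bp. Shares have exact (Clopper-Pearson) 95% intervals. Counts in 2 classes were set against each other by Fisher's exact test, two-sided, with the conditional odds ratio and a threshold of 0.05 after Benjamini-Hochberg adjustment over each family of 4. Functions were tested on simulated data. Alternatives varied the limit, windows, overlap, contigs, clusters and TAF4b replicates. None of the 737 nearest transcripts matched the RefSeq gene table (0 matches), and a genome of this build was not used here, so no gene or sequence is given. Python 3.11.15, SciPy 1.17.1, pandas 2.3.3, NumPy 2.4.6, matplotlib 3.10.9 and R 4.3.3 were used.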

Additional observations from a re-analysis of the deposited data

How the results depend on the processing

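Of 38 alternatives, 28 planned with the comparisons and 10 chosen after seeing the data, 31 were counted as unchanged. An odds ratio was unchanged if it kept its direction and side of the threshold. The 2 alternatives for clusters have neither, and only the count with gaps of 100 kb was near enough to be taken as unchanged. For distal against near regions, 5 turned an odds ratio that was not past the threshold to the other side of 1, and none of the 5 passed: with a limit of 25 kb, 0.865 for width and 0.95 for score; 0.995 for width among regions above the median score; 0.643 for widths of at least 1000 bp; and 0.826 for scores above the upper quartile. The cause was not tested. For TAF4b, a window of 5 kb gave 0.0684 and passed. Such a window reaches the TSS itself from near regions centred within 5 kb of it and from no distal region, and the cause was not tested. Leaving out each TAF4b replicate gave 0.152 to 0.182, neither past the threshold. The replicate block set same-numbered H3K4me3 and TAF4b lists side by side. Its odds ratio was 0.219 (exact Mantel-Haenszel test, adjusted p = 0.114), and the call did not change. Distal or near regions found in both H3K4me3 lists count there once per list. The labels tie no number to an animal, litter or day. Regions in clusters numbered 36 with gaps of at most 10 kb and 112 with 100 kb, against 81. For recovery in replicate 2, a limit of 5 kb and scores above the median left 0 near regions found, so these 2 further alternatives gave no odds ratio. All 10 alternatives of the comparisons with all other regions kept their call. The TAF4b contrast among them is largely set by the rule, so its unchanged call adds no support. Unknown depth and the short second list limit what absence from a list shows.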

Other observations

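2 of the distal intergenic regions that replicate 2 alone listed were the lowest positions of any feature on their chromosomes in the 4 lists: the region on chromosome 12 at 3159740 with a score of 2538.2, and one on chromosome 16 at 3052198 to 3052846 with a score of 113.4 and a distance of -67317 bp. Mouse chromosomes have their centromere at this end. No region of H3K4me3 replicate 1 lay within 199668 bp of the first or 509053 bp of the second.

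The 784 distal regions had 737 different nearest transcripts, of which 41 were shared by 2 regions and 3 by 3. Among the 784, 9 (1.15%, exact interval 0.526 to 2.17%) had a nearest transcript that was also the nearest of a TAF4b peak within 1 kb of its TSS, beside 13 of the 360 near regions (3.61%, 1.94 to 6.10%). These intervals overlap, and the difference was not tested. The share over all regions of the list was not counted, so neither share can be called high or low.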
